A study of Mus musculus with 7 samples.

Results

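Integrins are the receptors with which cells hold on to their surroundings, and laminins are a main part of the surroundings they hold on to. The 36 genes described here are integrin and laminin subunits on a mouse whole-genome oligonucleotide array, chosen by name alone: genes called Itga or Itgb with a number or letter, and genes called Lama, Lamb or Lamc with a number. They comprise 26 integrin and 10 laminin genes of 35715 named genes or other targets on the array. Of the 36, 30 (20 integrins and 10 laminins) had a probe that could be tested, of 18770 such genes in all.

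The arrays were hybridised with RNA from whole liver of 7 untreated C57BL/6J mice that were 4 weeks old, with an array for each animal and no pools. The 4 Rbpj+/+ animals were AlfpCre- Rbpj flox/flox and the 3 Rbpj-/- animals AlfpCre+ Rbpj flox/flox, so both groups carry the floxed allele and differ in the Cre transgene. AlfpCre is active in the epithelial cells of the liver from before birth, which leaves the gene intact in blood-derived, stellate and endothelial cells. The labels describe the Rbpj-/- livers as cholestatic and do not give the sex of the animals. In bulk tissue, fewer cells of a type and less RNA per cell cannot be told apart. The brighter of 2 Rbpj probes was lower in Rbpj-/- liver (log2 fold change -1.13, standard error 0.24, adjusted p = 0.0115 from limma), and which exons it lies in relative to the deleted part is not given in the sources used here.

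An integrin is a pair of 1 α and 1 β subunit that spans the cell membrane. The pair decides the ligand: β2 partners with αL, αM and αX on leukocytes to bind counter-receptors such as ICAM1, α4 pairs with β1 or β7 to bind VCAM1, fibronectin or MADCAM1, and α3, α6 and α7 bind laminin. A laminin is a cross-shaped trimer of an α, a β and a γ chain that self-assembles into the sheet of the basement membrane, where nidogen and perlecan tie it to collagen IV. In liver, basement membranes surround bile ducts, portal vessels and nerves, whereas the sinusoids run along hepatocytes without a continuous one. RBPJ is the DNA-binding factor through which Notch receptors act on their target genes.

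Values are log2 intensities minus the 75th percentile of the array, called normalized log2 intensity here, so that 0 is the level of the probe at that percentile. A log2 fold change is the mean of Rbpj-/- minus the mean of Rbpj+/+ animals, and a gene was called where its Benjamini-Hochberg adjusted p from limma over all tested probes was below 0.1. Each probe binds its own target with its own strength, so levels are compared between animals and not between genes. The arrays differed in brightness, with 41.1% to 64.9% of probes detected, and Rbpj+/+ replicate 2 and Rbpj-/- replicate 1 had median intensities of 19.7 and 31.2 where the other 5 arrays had 5.40 to 8.80. All arrays lay on 1 slide, the genotypes in different rows, so an effect of the row and of the genotype cannot be told apart.

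In Rbpj-/- liver, 9 of the 30 tested subunits rose, 3 fell and 18 did not pass. The called subunits are 12 of 30, beside 34.2% of all tested genes; rises made up 14.6% and falls 19.6% of all tested genes. The members had a median log2 fold change of 0.35, and the array as a whole one of -0.13. The rises were in the leukocyte integrins Itga4, Itgal, Itgax and Itgb2, in Itgb3 and Itga7, and in the laminin chains Lama5, Lamb2 and Lamc1. The falls were in the laminin chains Lama3 and Lamc3 and in the brightest probe of Itgam, whose other tested probe moved the opposite way. Lamc3 entered the test through the Rbpj+/+ arrays only, and that other Itgam probe through the Rbpj-/- arrays only. The genotypes did not overlap in 12 members, the same number as were called, beside 36.5% of all tested genes.

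**Figure D1:**
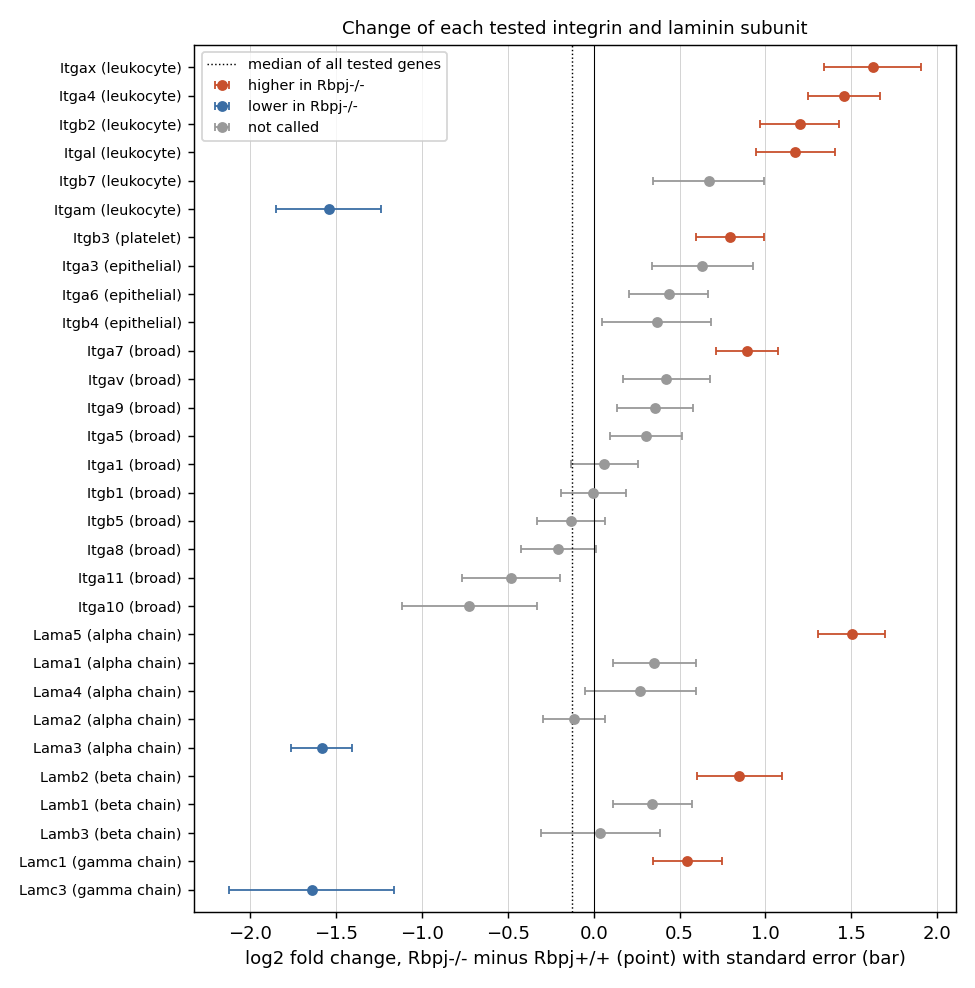
Log2 fold change between Rbpj-/- (n = 3) and Rbpj+/+ (n = 4) liver for the 30 tested subunits, on the horizontal axis, with the standard error from limma as bars and colours for the calls at an adjusted p below 0.1. The leukocyte integrins lie on the right except Itgam, the broadly expressed integrins scatter around 0 except Itga7, and the laminin chains lie on both sides, from -1.64 for Lamc3 to 1.5 for Lama5.

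For 5 of the 12 called members, RefSeq (GRCm38.p6) promoters were at hand and are shown for the reader to compare the sequence upstream of members that moved together or apart. Each runs 5′ to 3′ along its gene for the 250 bases before the transcription start, and the capitals mark matches, on either strand, to any of 4 short motifs.
Itga4, chr2:79255176-79255425, plus strand: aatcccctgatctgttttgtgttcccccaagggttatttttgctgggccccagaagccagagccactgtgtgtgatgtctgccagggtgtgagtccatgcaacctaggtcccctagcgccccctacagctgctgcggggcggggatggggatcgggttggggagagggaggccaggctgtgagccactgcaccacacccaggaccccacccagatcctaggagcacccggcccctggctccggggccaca
Itgax, chr7:128129300-128129549, plus strand: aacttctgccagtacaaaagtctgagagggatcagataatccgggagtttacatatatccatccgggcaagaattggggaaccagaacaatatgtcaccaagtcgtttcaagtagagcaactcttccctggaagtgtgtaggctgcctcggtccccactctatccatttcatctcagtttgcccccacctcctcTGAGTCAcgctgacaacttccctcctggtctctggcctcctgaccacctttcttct
Itgam, chr7:128062390-128062639, plus strand: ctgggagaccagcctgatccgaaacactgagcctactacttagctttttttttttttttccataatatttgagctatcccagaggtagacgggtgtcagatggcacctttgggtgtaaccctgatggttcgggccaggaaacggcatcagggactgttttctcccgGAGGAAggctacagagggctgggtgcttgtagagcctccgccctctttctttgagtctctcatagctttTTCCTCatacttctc
Lama5, chr2:180225860-180226109, minus strand: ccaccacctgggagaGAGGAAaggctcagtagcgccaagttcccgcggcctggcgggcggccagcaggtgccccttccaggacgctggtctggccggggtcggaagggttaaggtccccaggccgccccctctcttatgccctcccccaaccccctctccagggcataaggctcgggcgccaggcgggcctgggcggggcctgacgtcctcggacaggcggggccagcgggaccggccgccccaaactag
Lamb2, chr9:108479612-108479861, plus strand: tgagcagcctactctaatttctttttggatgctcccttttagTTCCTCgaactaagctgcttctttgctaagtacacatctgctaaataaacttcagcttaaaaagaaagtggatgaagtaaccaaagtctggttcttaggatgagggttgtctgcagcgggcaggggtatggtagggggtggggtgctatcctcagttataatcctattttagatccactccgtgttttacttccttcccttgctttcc
The motifs searched were GAGGAA, a core bound by the myeloid factor PU.1, TGGGAA, a core bound by RBPJ, GGAATG, a core bound by TEAD factors, and TGANTCA, the AP-1 site. GAGGAA stands at -84 and, on the other strand, at -15 in Itgam, at -235 in Lama5 and, on the other strand, at -208 in Lamb2, counted from the start to the left end of the match. The AP-1 letters stand at -56 in Itgax, and none of the 4 motifs is in the window of Itga4. Of all 32851 promoter windows of this length, 23.3% hold GAGGAA, 21.6% TGGGAA, 12.6% GGAATG and 6.75% TGANTCA. Promoters were listed for 23 of the 36 members, and of their 26 windows 13 hold GAGGAA, 5 TGGGAA, 3 GGAATG and 1 TGANTCA. These are matches of letters and were not examined for binding.

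Most tested leukocyte integrins changed between the genotypes. Of 8 such genes, 6 were tested, 4 rose and 1 was lower by its brightest probe. Over all tested genes, 14.6% rose and 19.6% fell. The median log2 fold change of the 6 was 1.19, beside -0.13 over all tested genes. Itga4, the α4 subunit of lymphocytes and monocytes, had normalized log2 intensities of -1.02, -1.15, -0.82 and -0.48 in Rbpj+/+ and 0.54, 0.67 and 0.56 in Rbpj-/- liver. All Rbpj-/- animals lay above all Rbpj+/+ animals and close together. The change was 2.74-fold (log2 fold change 1.46, standard error 0.21, adjusted p = 0.00277 from limma), measured by a probe on chromosome 2 from 79173193 to 79173252 of mm9, the build of the array's design.

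Itgax, or CD11c, marks dendritic cells and some macrophages. Its values were -1.65, -1.59, -2.23 and -1.26 in Rbpj+/+ and 0.39, -0.32 and -0.24 in Rbpj-/- liver, again without overlap. It rose 3.08-fold (log2 fold change 1.62, standard error 0.28, adjusted p = 0.00581). Itgb2, the β2 chain that αL, αM and αX share, had values of -0.37, 0.23, -0.12 and 0.24 in Rbpj+/+ and 1.52, 1.06 and 1.0 in Rbpj-/- liver. It rose 2.30-fold (log2 fold change 1.2, standard error 0.23, adjusted p = 0.00894), in every animal above the highest control.

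Itgal, the αL subunit found on most leukocytes, was at -1.09, -1.38, -1.31 and -0.97 in Rbpj+/+ and at -0.17, -0.29 and 0.43 in Rbpj-/- liver, which did not overlap. It rose 2.26-fold (log2 fold change 1.17, standard error 0.23, adjusted p = 0.00924), and a second tested probe rose by 0.96 (adjusted p = 0.0885) with 1 Rbpj-/- animal at -2.04, inside the control range. With normexp background correction, which adds an offset that draws dim signals together, the log2 fold changes of Itga4, Itgal and Itgax shrank to 0.89, 0.58 and 0.62 and remained called. Itgb7, the β7 chain of gut-homing lymphocytes, did not pass: its values were -1.34, -0.56, -0.77 and -0.30 in Rbpj+/+ and 0.42, -0.67 and 0.03 in Rbpj-/- liver (log2 fold change 0.67, adjusted p = 0.164). The genotypes overlapped for Itgb7, and without Rbpj-/- replicate 2, which lay lowest, it passed with a log2 fold change of 0.97 (adjusted p = 0.0976). Itgad and Itgae could not be tested. Itgae was detected on no array and Itgad on 1 array of each genotype.

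**Figure D2:**
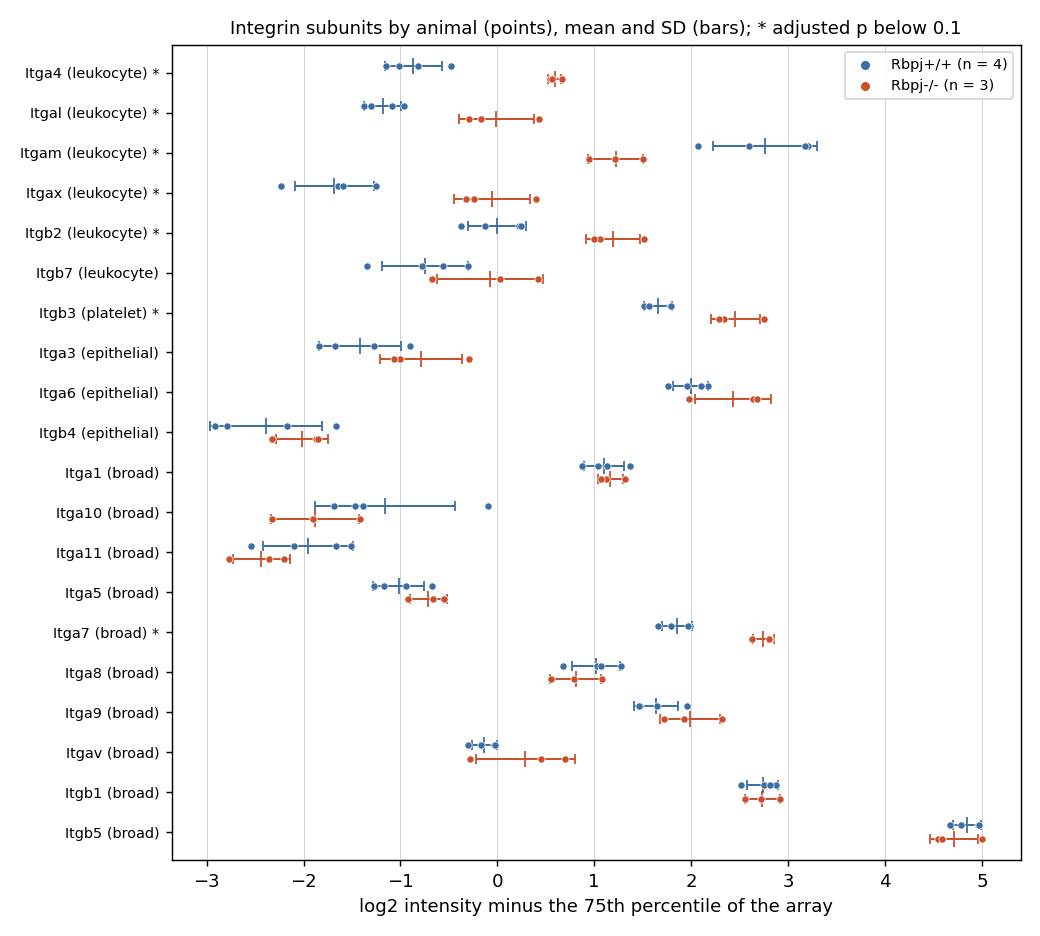
Normalized log2 intensity of the 20 tested integrin subunits on the horizontal axis, for each animal (points) with the mean and SD of the genotype (bars), grouped by where the subunit is mainly found. The blue and orange points separate for 5 of the 6 leukocyte integrins and for Itgb3 and Itga7, and are mixed for the 3 epithelial integrins.

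Itgam, the αM subunit or CD11b of macrophages, neutrophils and Kupffer cells, gave opposite directions by its 2 tested probes, so none is given. Its brightest probe, on chromosome 7 from 135261755 to 135261814 of mm9, was at 2.07, 3.21, 3.17 and 2.60 in Rbpj+/+ and at 0.95, 1.21 and 1.51 in Rbpj-/- liver, which is -1.54 on the log2 scale (standard error 0.31, adjusted p = 0.00969). A second probe, from 135260275 to 135260334, was at -2.83, -1.73, -2.82 and -3.27 in Rbpj+/+ and at -0.98, -2.02 and -2.14 in Rbpj-/- liver, which is 0.95 on the log2 scale (adjusted p = 0.119). This second probe was detected on 2 of 4 Rbpj+/+ and on 3 of 3 Rbpj-/- arrays, so part of its control values lies near background. It entered the test through the Rbpj-/- arrays only, where it is higher. The third probe was detected on 2 arrays of each genotype and was not tested. The first probe fell without overlap while the second overlapped in 1 Rbpj+/+ animal, replicate 2. The mean of the tested probes, which includes this second probe, changed by -0.29 (adjusted p = 0.482). Itgam and Itgax lie next to each other on chromosome 7 with no protein-coding gene between them in RefSeq, and Itgad follows directly.

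**Figure D3:**
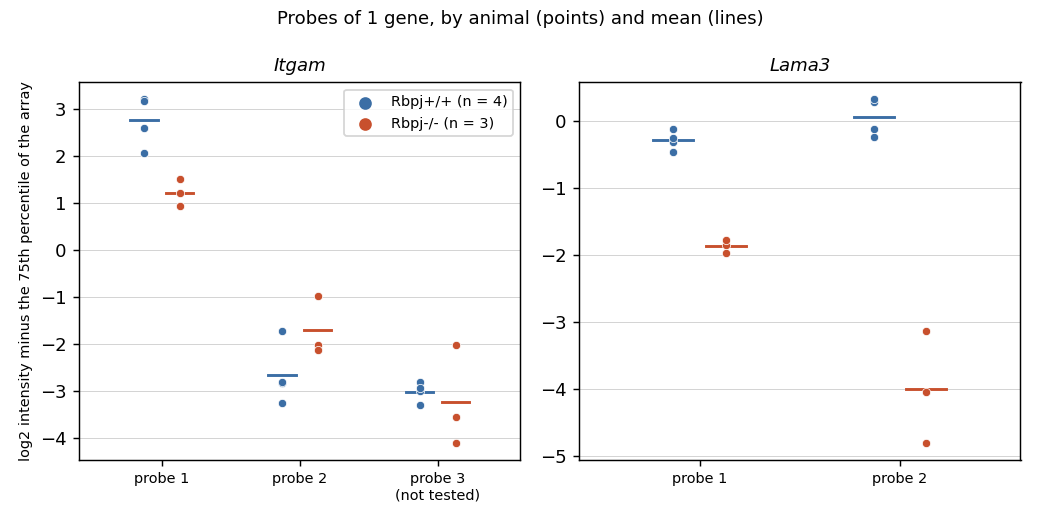
Normalized log2 intensity (vertical axis) of all probes of Itgam and of Lama3 by animal (points) and genotype mean (lines), ordered by mean level. The first Itgam probe is lower and the second higher in Rbpj-/- than in Rbpj+/+ liver, whereas both Lama3 probes are lower.

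Markers of blood cells moved in the same animals. All 5 pan-leukocyte markers rose, and their summed level, in units of the 75th percentile signal, was 9.49 to 14.0 in Rbpj+/+ and 22.0 to 28.3 in Rbpj-/- liver. Of 10 macrophage markers 8 rose, with sums of 86.6 to 111 against 303 to 411. Lymphocyte markers went the other way, as 5 of 7 tested fell and the sums were 32.1 to 43.8 against 12.1 to 20.0, with Cd8a, Ncr1 and Klrb1c not tested. Of 7 tested neutrophil markers 2 rose and 2 fell, with sums of 187 to 279 against 160 to 197. The rises were in S100a8 (log2 fold change 2.62) and S100a9 (2.46), and the falls in Csf3r (-0.76) and Elane (-0.50). Csf3r was by far the brightest, with means of 7.69 in Rbpj+/+ and 6.93 in Rbpj-/- liver. The neutrophil sum therefore mainly follows that gene and gives no direction for the list. The part of these cell types in the changes of the leukocyte integrins was not tested.

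**Figure D4:**
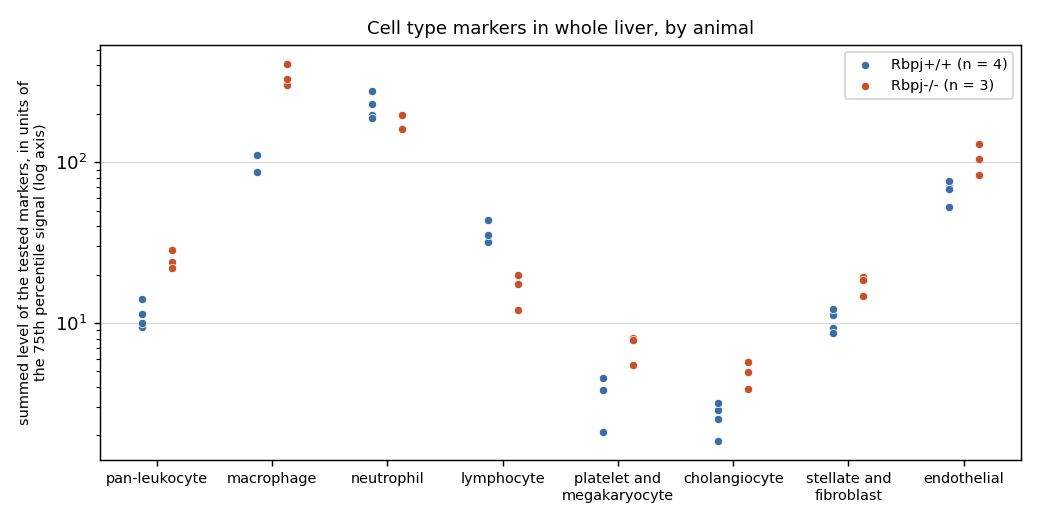
Summed level of the tested markers of 8 cell types (vertical axis, log scale, in units of the 75th percentile signal of the array), by animal. The macrophage and pan-leukocyte sums of the 3 Rbpj-/- animals lie above those of all 4 Rbpj+/+ animals, and the lymphocyte sums lie below them.

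Of the 2 platelet integrins, Itgb3 rose. The β3 chain pairs with αIIb on platelets and with αv on endothelium and macrophages, and its values were 1.51, 1.56, 1.78 and 1.79 in Rbpj+/+ and 2.34, 2.75 and 2.28 in Rbpj-/- liver, without overlap. The change was 1.73-fold (log2 fold change 0.79, standard error 0.20, adjusted p = 0.0223), and it did not pass without the filter on dim probes (adjusted p = 0.162). Itga2b, the αIIb chain, was detected on 2 arrays of each genotype and was not tested. Summed platelet and megakaryocyte markers were 2.11 to 4.54 in Rbpj+/+ and 5.45 to 8.04 in Rbpj-/- liver. Of 3 tested markers 1, Pf4, was called higher (log2 fold change 1.28), beside 14.6% of all tested genes. Gp9 was at -0.14 and Ppbp at -0.27, and Gp1ba, Gp1bb and Gp5 were not tested. Pf4 was the brightest, with means of 1.30 in Rbpj+/+ and 2.58 in Rbpj-/- liver. The sum therefore mainly follows Pf4 and gives no direction for the list. The part of platelets in the rise of Itgb3 was not tested.

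None of the 3 tested epithelial integrins passed, beside 34.2% called of all tested genes. Itga3, which pairs with β1 to bind laminin on bile duct and other epithelia, was at -1.84, -0.90, -1.68 and -1.27 in Rbpj+/+ and at -0.30, -1.01 and -1.06 in Rbpj-/- liver (log2 fold change 0.63, standard error 0.29, adjusted p = 0.146). Itga6, the laminin-binding partner of β1 and β4, was at 1.96, 2.17, 1.76 and 2.10 against 2.64, 2.68 and 1.98 (log2 fold change 0.44, standard error 0.23, adjusted p = 0.198). The genotypes overlapped, with 2 Rbpj-/- animals inside the control range for Itga3 and 1 for Itga6. Itga3 passed without Rbpj+/+ replicate 2, its highest control (log2 fold change 0.81, adjusted p = 0.0646), and Itga6 passed without Rbpj-/- replicate 3, its lowest Rbpj-/- animal (0.66, adjusted p = 0.0786).

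Itgb4, the β4 chain of hemidesmosomes, was at -2.91, -1.67, -2.17 and -2.79 in Rbpj+/+ and at -1.87, -1.86 and -2.32 in Rbpj-/- liver (log2 fold change 0.37, adjusted p = 0.422), and was detected on 3 of 4 Rbpj+/+ arrays. All 3 Rbpj-/- animals lay inside the control range. Itga2 was detected on no array and Itgb6 on 1 array of each genotype by 1 of its 2 probes, and neither was tested. Of the cholangiocyte markers 2 of 6 tested, Sox9 and Cldn7, rose, beside 14.6% of all tested genes. The list's median log2 fold change was -0.10, with sums of 1.85 to 3.20 in Rbpj+/+ and 3.88 to 5.69 in Rbpj-/- liver. Epcam, Muc1 and Tspan8 were not tested.

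Among the mesenchymal and broadly expressed integrins, 1 of 10 tested genes passed, with a median log2 fold change of 0.03. This was Itga7, a laminin-binding subunit of muscle and vessel wall, at 1.99, 1.79, 1.96 and 1.66 in Rbpj+/+ and 2.81, 2.80 and 2.62 in Rbpj-/- liver. It rose 1.86-fold (log2 fold change 0.89, standard error 0.18, adjusted p = 0.0103) with all Rbpj-/- animals above all controls, and narrowly missed the threshold without the filter on dim probes (adjusted p = 0.105). Summed stellate and fibroblast markers were 8.61 to 12.1 in Rbpj+/+ and 14.7 to 19.3 in Rbpj-/- liver, with 5 of 8 tested higher. Summed endothelial markers were 52.5 to 75.8 against 83.1 to 129, with 4 of 8 higher and 1 lower. Over all tested genes, 14.6% were higher and 19.6% lower. Of the endothelial rises, Tek and Emcn were detected on 2 of 4 Rbpj+/+ and 3 of 3 Rbpj-/- arrays and entered the test through the latter. The part of these cell types in the rise of Itga7 was not tested.

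Itgb1, the β1 chain that most α subunits of tissue cells need, was at 2.75, 2.51, 2.87 and 2.81 in Rbpj+/+ and at 2.72, 2.92 and 2.56 in Rbpj-/- liver. Its change was -0.0031 on the log2 scale (standard error 0.19, adjusted p = 0.992) and -0.09 by a dimmer probe (adjusted p = 0.819), and its sign depended on the setting. Itgb5, which pairs with αv, was at 4.78, 4.67, 4.96 and 4.97 against 4.55, 4.59 and 5.0 (log2 fold change -0.13, adjusted p = 0.653). Both β chains overlapped between the genotypes.

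The αv subunit, Itgav, binds RGD motifs in vitronectin and fibronectin and activates latent TGF-β with β6 or β8. Its brighter probe was at -0.04, -0.30, -0.03 and -0.17 in Rbpj+/+ and 0.70, 0.45 and -0.28 in Rbpj-/- liver (log2 fold change 0.42, adjusted p = 0.250). Of the 3 Rbpj-/- animals, 2 lay above all controls and replicate 3 among them, and without replicate 3 the gene passed (0.71, adjusted p = 0.0620). A dimmer probe of Itgav passed by itself (0.75, adjusted p = 0.0683). The 2 Itgav probes thus agreed in direction and differed in call.

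The other partners of β1 in this group did not pass. Itga5, the fibronectin receptor chain, was at -1.17, -1.27, -0.68 and -0.94 in Rbpj+/+ and -0.66, -0.92 and -0.55 in Rbpj-/- liver (log2 fold change 0.30, adjusted p = 0.321). Itga8, the nephronectin receptor chain of stellate and smooth muscle cells, was at 1.02, 0.68, 1.07 and 1.28 against 0.55, 0.79 and 1.08 (-0.21, adjusted p = 0.516). In both, the ranges of the genotypes overlapped. Itga9, a tenascin receptor chain, was at 1.47, 1.65, 1.96 and 1.47 against 1.72, 1.93 and 2.32 (0.36, adjusted p = 0.270), with 1 Rbpj-/- animal above the controls.

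The collagen-binding subunits Itga1, Itga10 and Itga11 did not pass by their brightest probes. Itga1, present on stellate and sinusoidal endothelial cells, was at 0.87, 1.04, 1.37 and 1.13 in Rbpj+/+ and 1.12, 1.07 and 1.31 in Rbpj-/- liver (log2 fold change 0.06, adjusted p = 0.834), while its dimmer probe passed as lower (-0.64, adjusted p = 0.0916). The probes of Itga1 thus gave different calls. Itga10 changed by -0.73 (adjusted p = 0.209) and its second probe by -0.89 (adjusted p = 0.0763), with Rbpj+/+ replicate 2 at -0.09 where the other controls were at -1.68 to -1.39 and the Rbpj-/- animals at -1.42, -2.33 and -1.90. Itga11, of fibroblasts, was at -1.51, -2.10, -2.54 and -1.67 in Rbpj+/+ and -2.76, -2.20 and -2.35 in Rbpj-/- liver (-0.48, adjusted p = 0.242). Itgb8 was detected on no array.

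The laminin chains moved in both directions. Of 10 tested genes 3 rose, 2 fell and 5 did not pass, beside 34.2% called of all tested genes. Their median log2 fold change was 0.31. The genotypes did not overlap in the 5 called genes, beside 36.5% of all tested genes. Lama5, the α5 chain of the laminins of mature epithelial and vessel basement membranes, was at 0.30, 0.28, 0.33 and 0.03 in Rbpj+/+ and at 1.70, 2.0 and 1.5 in Rbpj-/- liver. All Rbpj-/- animals lay far above the controls. The rise was 2.83-fold (log2 fold change 1.5, standard error 0.20, adjusted p = 0.00192), by a probe on chromosome 2 from 179911079 to 179911138 of mm9.

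Lama3, the α3 chain of the laminin of hemidesmosomes, fell. Its brighter probe was at -0.12, -0.46, -0.31 and -0.25 in Rbpj+/+ and at -1.86, -1.98 and -1.78 in Rbpj-/- liver, which is -1.58 on the log2 scale (standard error 0.18, adjusted p = 0.00112), or 3.0-fold lower. The second probe was at 0.29, -0.24, -0.11 and 0.32 against -4.05, -4.80 and -3.13, a change of -4.06, and was detected on 1 of 3 Rbpj-/- arrays, so that 2 of its values lie near background. This second probe entered the test through the Rbpj+/+ arrays only, where it is higher, so the size of its fall is uncertain. The genotypes did not overlap for either probe, but for the second probe this partly follows from how it entered. The brighter probe was detected on every array of both genotypes. The mean of both probes, which includes the second probe, changed by -2.82, and its size is uncertain for the same reason.

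Lamb3, the β3 chain that assembles with α3, did not pass. It was at -1.09, -1.53, -1.75 and -1.02 in Rbpj+/+ and at -0.93, -2.15 and -0.85 in Rbpj-/- liver (log2 fold change 0.04, standard error 0.35, adjusted p = 0.944). The genotypes overlapped for Lamb3 and not for Lama3.

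**Figure D5:**
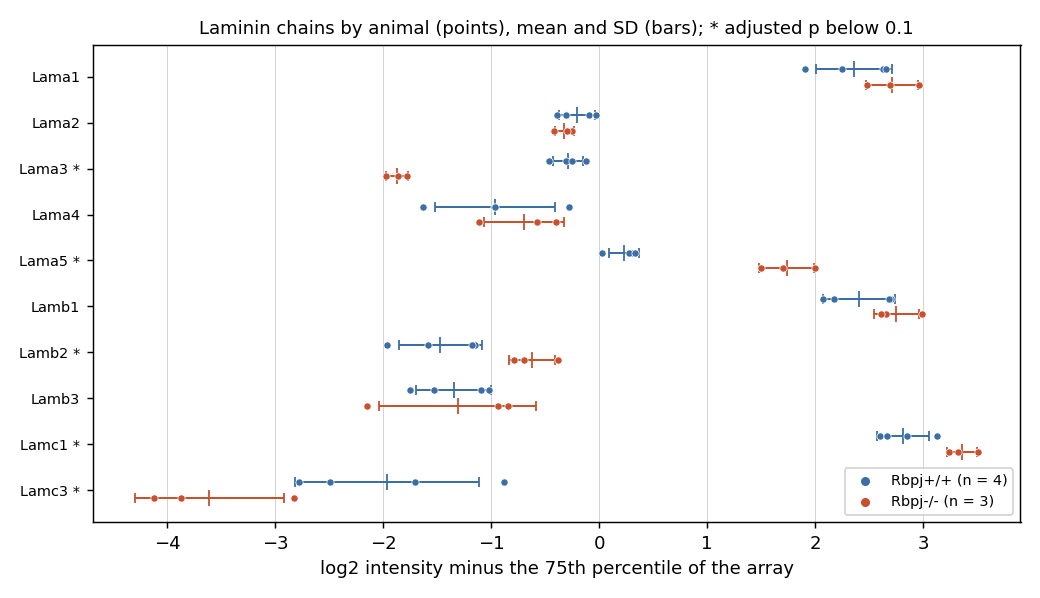
Normalized log2 intensity of the 10 laminin chains on the horizontal axis, for each animal (points) with the mean and SD of the genotype (bars). Lama5, Lamb2 and Lamc1 are shifted to the right and Lama3 and Lamc3 to the left in Rbpj-/- liver, and the other 5 chains overlap.

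Lamb2, the β2 chain found in vessel and neuromuscular basement membranes, was at -1.96, -1.15, -1.17 and -1.59 in Rbpj+/+ and at -0.38, -0.79 and -0.70 in Rbpj-/- liver (1.80-fold, log2 fold change 0.85, standard error 0.25, adjusted p = 0.0394). It did not pass without Rbpj-/- replicate 1 (0.73, adjusted p = 0.127), with normexp correction (0.33, adjusted p = 0.109) or without the filter on dim probes (adjusted p = 0.217). Lamb1, the widespread β1 chain, was at 2.17, 2.08, 2.71 and 2.69 against 2.65, 2.61 and 2.99 (log2 fold change 0.34, adjusted p = 0.309). Lamb1 overlapped between the genotypes where Lamb2 did not.

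Lamc1, the γ1 chain of most laminins, had the smallest called change among the members. Its values were 2.60, 2.67, 3.13 and 2.85 in Rbpj+/+ and 3.24, 3.51 and 3.32 in Rbpj-/- liver (1.46-fold, log2 fold change 0.54, standard error 0.20, adjusted p = 0.0796). The gap between the highest control and the lowest Rbpj-/- animal was narrow, and the call was lost when any animal other than Rbpj+/+ replicate 3 was left out, with changes of 0.47 to 0.60.

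Lamc3, the γ3 chain, was at -2.78, -0.88, -1.70 and -2.49 in Rbpj+/+ and at -2.83, -3.87 and -4.12 in Rbpj-/- liver (log2 fold change -1.64, standard error 0.48, adjusted p = 0.0398). The ranges of the genotypes nearly touched. Lamc3 was detected on 4 of 4 Rbpj+/+ and 2 of 3 Rbpj-/- arrays. It entered the test through the Rbpj+/+ arrays, where it is higher. Rbpj-/- values thus lie near background, and the size of the fall is uncertain. Its call was lost without Rbpj+/+ replicate 3 (-1.56, adjusted p = 0.1002), Rbpj-/- replicate 2 (-1.51, adjusted p = 0.131) or Rbpj-/- replicate 3 (-1.39, adjusted p = 0.127). With normexp correction its change was -0.65 and passed.

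The remaining α chains did not pass and overlapped between the genotypes. Lama1, of embryonic basement membranes, was at 1.90, 2.25, 2.62 and 2.65 in Rbpj+/+ and 2.48, 2.69 and 2.96 in Rbpj-/- liver (log2 fold change 0.35, adjusted p = 0.313). Lama2, of muscle and nerve, was at -0.30, -0.38, -0.10 and -0.03 against -0.41, -0.25 and -0.30 (-0.12, adjusted p = 0.665), and a dimmer probe changed by -0.36 (adjusted p = 0.261). Lama4, of vessels, was at -1.63, -0.28, -0.98 and -0.97 against -0.57, -1.11 and -0.40 (0.27, adjusted p = 0.568), with its controls spread widely.

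The genes through which integrins are anchored to the cytoskeleton moved in both directions. Of 25 adaptor and adhesion complex genes 22 were tested, 9 rose and 5 fell, beside 34.2% called of all tested genes, with a median log2 fold change of 0.32. Among the called rises were Fermt3, the kindlin of blood cells that activates integrins (adjusted p = 0.0110), and Parvg, the parvin of blood cells (adjusted p = 0.0205). Both were detected on 2 of 4 Rbpj+/+ and 3 of 3 Rbpj-/- arrays and entered the test through the latter, so control values lie near background and no size of the change is given. The largest falls were in Ptk2b, a tyrosine kinase related to focal adhesion kinase (-2.82, adjusted p = 0.000380), and Fermt2, the kindlin of tissue cells (-1.23, adjusted p = 0.00328). A second, dimmer Ptk2b probe changed by -0.28 and did not pass (adjusted p = 0.276), and a second Fermt2 probe fell by 0.59 (adjusted p = 0.0703).

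Among 15 ligand genes other than laminins and collagens, 12 were tested, 8 rose and 1 fell, with a median log2 fold change of 1.37. Of all tested genes, 14.6% rose and 19.6% fell. Mfge8, a secreted protein that links αv integrins to dying cells, was at 4.36, 4.47, 4.71 and 4.52 in Rbpj+/+ and 7.13, 7.33 and 6.93 in Rbpj-/- liver, which is 2.61 on the log2 scale (adjusted p = 0.000207). Icam1, the counter-receptor of the β2 integrins, was called higher (adjusted p = 0.0581), but was detected on 2 of 4 Rbpj+/+ arrays and entered the test through the Rbpj-/- arrays, so no size is given. Another of the ligand genes called higher was detected on 3 of 4 Rbpj+/+ arrays and also entered through the Rbpj-/- arrays. Vtn, or vitronectin, a plasma protein made by hepatocytes, was the gene that fell (-0.52, adjusted p = 0.0717).

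Of 11 genes for laminin partners and non-integrin laminin receptors 10 were tested, 3 rose and none fell, a share near the 34.2% called of all tested genes, with a median log2 fold change of 0.49. Nid1, the nidogen that joins laminin to collagen IV, was at 2.27, 1.99, 2.19 and 2.32 in Rbpj+/+ and 4.86, 5.46 and 4.36 in Rbpj-/- liver, which is 2.70 on the log2 scale (adjusted p = 0.000606). Hspg2, or perlecan, rose by 0.65 (adjusted p = 0.0519). The genotypes did not overlap for either gene.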

How the data were processed

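The intensity values deposited by the authors are background-subtracted signals of single spots from Agilent Feature Extraction 10.7.3.1 (per the labels), without normalization between arrays, beside the mean and background intensities. The authors also deposited log2 values in the series matrix, which correlate with quantile-normalized, probe-centred log2 intensities at 0.9997 or more on each array and were used as an alternative. From the scanner files, spots marked non-uniform or population outliers were left out (146 probe values), repeat spots of a probe were averaged as log2 values, and each array was shifted by its 75th percentile. No spot was saturated. Detected means that most spots of a probe were marked both positive and significant, and well above background; a probe entered the test if every array of a genotype detected it. Genotypes, taken from the labels, were compared by limma (version 3.58.1, R 4.3.3), p-values were adjusted after Benjamini-Hochberg over all tested probes, and the threshold was 0.1, and a gene is its tested probe with the highest mean. The number of arrays limits the precision.

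The members are given with their values, except 1 gene that is not reported here. Of each pathway list, at most the 2 called genes with the largest change in each direction are named. The members, the gene lists and the tests were chosen with earlier results of these data known. Hepatocyte markers were read too: 4 of 8 fell, beside 19.6% of all tested genes. Their sums were 2499 to 3911 in Rbpj+/+ and 1944 to 2444 in Rbpj-/- liver. On simulated data with 24511 probes, limma recovered 127 of 200 probes changed by 1.5 on the log2 scale, with 13 false calls. A far smaller share of probes changed there than the 34.2% of genes called in the data. The adjustment is stricter in that setting, so the recovery does not describe the data. The alternatives comprised normexp correction (offset 50), quantile normalization, a percentile taken over detected probes, no filter on dim probes or detection on all 7 arrays, marked spots kept, limma with an intensity trend or array weights, the stricter threshold of 0.05, the matrix values, the mean of a gene's probes, each animal left out and, chosen after seeing the data, both brightest arrays left out.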

Additional observations from a re-analysis of the deposited data

Results flagged for a closer look

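Lama5 in Rbpj+/+ liver had 1 animal apart from the rest: replicate 4 was at 0.03 and the other 3 at 0.28 to 0.33, a gap of 0.833 of the whole range, which is above Dixon's critical value for 4 samples. Chance gives such a gap in about 1 in 20 groups. Replicate 4 lies below the other controls and thus further from the Rbpj-/- animals, and the log2 fold change of Lama5 was 1.23 to 1.62 over all settings.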

How the results depend on the processing

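Over the alternatives, the 12 called members gave 227 values, of which 208 kept their direction and call, 19 kept their direction only and none reversed. The 18 others gave 341 values, of which 304 did not change side or sign, 12 passed and 25 reversed. With normexp correction 3 integrins were lower and 1 epithelial integrin was higher, and the changes of Itga5, Itga8, Itgb1, Itgb4, Itgb5 and Lamb3 turned to -0.0072, 0.015, 0.21, -0.23, 0.18 and -0.12. Quantile normalization and the series matrix each called 1 epithelial integrin higher, and turned Itgb1 (0.049 and 0.051) and Itgb5 (0.0058 and 0.0081). The percentile over probes detected on all arrays turned Itgb1 to 0.077. Array weights called 1 epithelial integrin higher and turned Lamb3 to -0.19. The mean of all tested probes left no integrin and no leukocyte integrin lower (0 and 0), as Itgam no longer passed, and turned Itga1 to -0.29. Detection on all 7 arrays, by which Lamc3 is not tested, left 1 laminin lower. Without a filter, which adds untested dim probes to the adjustment, 1 laminin was higher and 1 lower, 7 pathway genes higher and 2 lower, and 968 of all genes higher and 674 lower, against 20, 6, 2741 and 3671 in the report's setting. At an adjusted p below 0.05, 13 pathway genes were higher and 2387 of all genes lower. Quantile normalization split all calls into 3116 higher and 2851 lower, and the percentile over detected probes into 3396 and 3244. Without both brightest arrays 6 integrins were higher and 1 lower, 2 laminins higher and 2 lower, and Lamb3 turned to -0.21. Except for the filter and the detection rule, the cause was not tested.

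Leaving out each animal gave 6 to 8 integrins higher and 1 lower, 1 to 3 laminins higher (1 without Rbpj-/- replicate 1) and 1 to 2 lower, 0 to 1 epithelial and 4 to 5 leukocyte integrins higher, 12 to 19 pathway genes higher and 3 to 6 lower, and 1845 to 2740 of all genes higher and 1876 to 4368 lower. The changes ranged from -0.015 to 0.15 for Itga1, -0.096 to 0.085 for Itgb1 and -0.19 to 0.46 for Lamb3, and so took both signs. No paired analysis was possible because the labels give the genotypes no shared replicate numbers. Dim signals limit Itgb4, Lamc3 and the second probes of Itgam and Lama3.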
